A study of Mus musculus with 7 samples.

Results

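Mutually exclusive exon pairs are neighbouring exons of which a transcript keeps either one or the other. The pairs described here were all splicing events that the authors' tables class as mutually exclusive exons and whose exon coordinates occur once in the table of each replicate number and in both tables. There were 562 such pairs in 486 genes, of 11814 events of all types chosen in the same way. They were measured by RNA-seq of primary cortical neurons of ICR mouse embryos (embryonic day 16), after 11 days in culture. Cells of the KCl group (2 libraries) were kept for 10 min in a buffer with 50 mM KCl, which depolarises neurons, and cells of the control group (2 libraries) for the same time in a buffer with NaCl in its place. RNA was taken 24 h later from both groups. Neither group carries a genetic change, and the labels do not say whether the 2 libraries of a group came from separate cultures, so every p-value measures the spread between these libraries, which may be technical.

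In a mutually exclusive pair the exons often arose by duplication of an ancestral exon, so that the gene makes proteins that differ in a short stretch at the same place. Joining both exons is blocked in several ways: by an intron too short for the splicing machinery, by splice sites of incompatible types, in flies by RNA structures that bring a splice site to only one partner, or by decay of the transcript that holds both or neither. RNA-binding proteins such as PTB, hnRNP A1, RBFOX and muscleblind set which exon is kept. In neurons, classical pairs lie in AMPA receptors (flip and flop), sodium and calcium channels, the SNARE protein SNAP-25, the JNK kinases and pyruvate kinase.

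Whole exons of the pairs could be read where they lie inside a RefSeq promoter window (build GRCm38.p6, the same coordinates as mm10), and 4 of them are given here because they show the build of a pair. The Mef2c pair is the only one of which part of both exons could be read. Mef2c encodes a transcription factor of neurons and muscle, and its exons lie at chr13:83625265-83625408 and chr13:83625470-83625607 on the plus strand, with an intron of 61 bases between them. The stretch printed is chr13:83625265-83625519, which holds the 144 bases of the upstream exon, the intron and the first 50 of the 138 bases of the downstream exon. Capitals mark exon and lower case marks intron, in this sequence and in the next 3.
Mef2c pair, plus strand: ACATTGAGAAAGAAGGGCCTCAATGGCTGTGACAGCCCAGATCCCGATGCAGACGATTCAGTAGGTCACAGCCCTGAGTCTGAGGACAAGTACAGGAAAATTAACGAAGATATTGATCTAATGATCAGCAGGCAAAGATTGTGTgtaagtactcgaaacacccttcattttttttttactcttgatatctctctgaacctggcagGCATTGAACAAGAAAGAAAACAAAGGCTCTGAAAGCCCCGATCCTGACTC
Enox2 exon, minus strand: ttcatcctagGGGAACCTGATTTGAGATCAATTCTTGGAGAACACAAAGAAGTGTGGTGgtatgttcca
Cdk19 exon, plus strand: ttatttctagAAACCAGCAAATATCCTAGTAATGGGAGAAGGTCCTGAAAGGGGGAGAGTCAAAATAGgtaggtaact
Ssbp3 exon, plus strand: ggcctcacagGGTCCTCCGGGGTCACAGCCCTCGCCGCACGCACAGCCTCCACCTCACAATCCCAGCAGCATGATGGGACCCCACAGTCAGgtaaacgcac
The first 50 bases of the Mef2c exons were equal at 35 positions (70.0%) when laid side by side without gaps. Enox2 codes for a surface NADH oxidase, and its exon of 49 bases is at chrX:49286856-49286904, shown with 10 bases of intron on each side. The Cdk19 exon of 58 bases, from a kinase of the Mediator complex, is at chr10:40454015-40454072, and the Ssbp3 exon of 81 bases, from a single-stranded DNA-binding protein, is at chr4:107027217-107027297, both also with 10 bases on each side. Each of the 3 flanked exons follows the bases ag and precedes the bases gt.

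The exon of lower coordinate had a median length of 117 bases (17 to 5217) and the exon of higher coordinate of 115 bases (9 to 5527). The intron between them had a median of 2643 bases (0 to 154495). It was under 100 bases in 33 pairs, and in 4 of them, in Alg13, Cul9, Foxk2 and Rbbp5, the exons abutted. Both exons were of equal length in 49 pairs (8.72%), of which 21 had a length divisible by 3 and 28 had not. Lengths differed by a multiple of 3, equal lengths included, in 303 pairs (53.9%), so that switching exons leaves the later reading frame as it was, if both exons are coding. Both lengths were multiples of 3 in 192 pairs (34.2%). An exon of at most 27 bases, a microexon, was found in 13 pairs and an exon over 1000 bases in 9. An exon was shared with another pair in 106 pairs: 420 genes had 1 pair, 58 had 2, 6 had 3, and Smpd4, a sphingomyelinase gene, and Fam149b had 4 each.

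**Figure D1:**
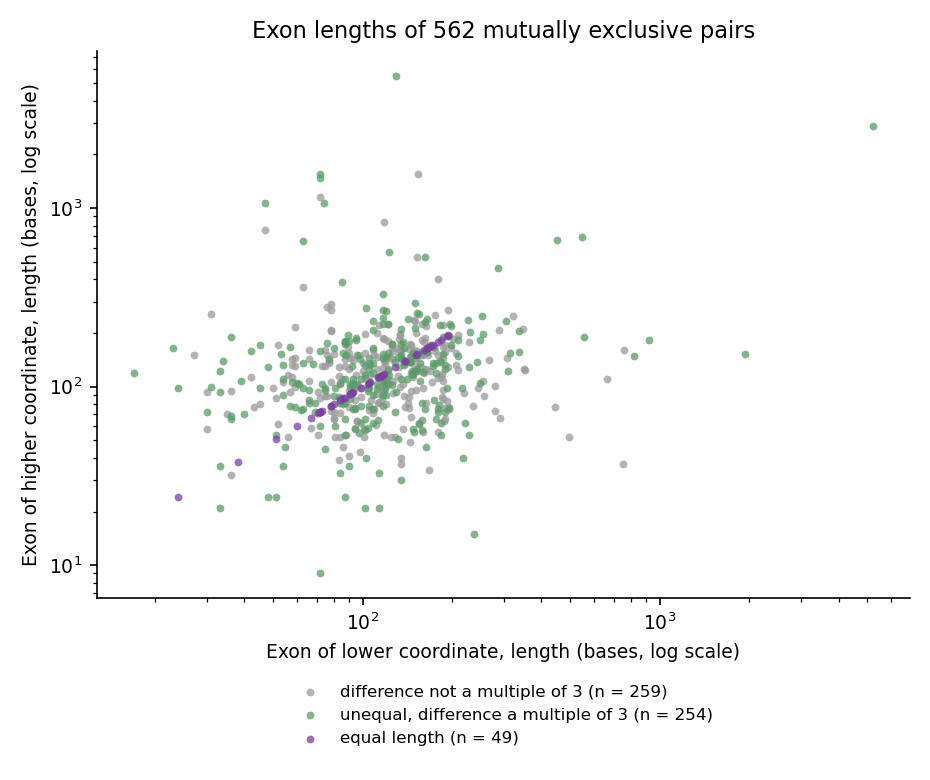
Length of the exon of lower coordinate (x axis, bases, log scale) and of the exon of higher coordinate (y axis, bases, log scale) for the 562 pairs, coloured by how the lengths differ. The 49 pairs of equal length lie on the diagonal, and most exons are near the medians of 117 and 115 bases.

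The value followed below is the inclusion read share, the inclusion reads in percent of the inclusion and skipping reads of a pair. It is not a percent spliced in, since the tables give no effective lengths. The tables do not say which exon counts as inclusion, so this was read from exons that are also listed as cassette exons. In 59 pairs of known strand the counts of a form equalled those of such an exon in all 4 libraries, and in 59 of the 59 the inclusion reads were those of the exon that comes first in the transcript (33 on the plus and 26 on the minus strand). Over the 89 pairs of known strand with both exons listed as cassettes and at least 20 reads, the counts lay nearest to the same assignment in 82 (92.1%). A high share is therefore read here as more reads of the upstream exon, for the 456 pairs with a known strand (251 plus, 205 minus). The same counts also mean that the cassette values of an exon are not independent of the pair. The share also went with exon length. Over 440 pairs the control share rose with the length of the upstream exon relative to the other (Spearman rho 0.47). In control, the share was over 50% exactly where the upstream exon had the higher cassette share in 62 of 85 pairs (72.9%). A share in a pair of very unequal lengths is thus no measure of how often an exon is used.

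Pairs were more evenly split than other events. The median share over the 545 tested pairs, in which neither form averaged under 1 read, was 50.0% and 48.7% in the KCl libraries and 49.4% and 47.8% in the control libraries, where the medians over all 10088 tested events were between 76.7% and 77.3%. Such a median does not by itself show an even split, since the order of the exons sets which one counts as inclusion. Of all tested events 6177 were cassette exons, with a median control share of 90.6%. A mean share between 25 and 75% was found for 302 of the 545 pairs in KCl (55.4%) and for 315 in control (57.8%), against 25.4% and 26.1% of all events. Shares under 10% or over 90% were found for 19.3% of the pairs in KCl and 18.7% in control, against 52.2% and 51.2% of all events. These are descriptions with no test. Of the 17 pairs not tested, 7 had too few inclusion reads and 10 too few skipping reads.

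Reads on the pairs came to 130423 and 146865 in the KCl libraries and 136493 and 166804 in the control libraries, 3.1 to 3.83% of all event reads. The median pair had 76 and 112 reads in KCl and 90.5 and 118 in control. Among the marker lists, 6 of 12 neuron markers were measured through a splicing event and all 6 were lower in KCl: their summed level was 690 and 2434 CPM (event counts scaled to the library total) in KCl, against 7215 and 7055 in control, with Syn1, Tubb3, Camk2a, Slc17a7, Nefl and Gad2 not measured. The 5 of 11 oligodendrocyte lineage markers measured were all higher (1996 and 1094 CPM in KCl, 317 and 341 in control), as were 4 of 11 mesenchymal and vascular markers (3060 and 2602 CPM in KCl, 451 and 639 in control). The sum of the 5 of 8 astrocyte markers measured was 4133 and 3059 CPM in KCl and 2979 and 2308 in control. Most of it was Aldoc (2694 and 2057 CPM in KCl, 2273 and 1610 in control). Groups overlapped in Aldoc and in Slc1a2 (519 and 203 CPM in KCl, 463 and 238 in control). Gfap, Slc1a3 and Aqp4 had log2 fold changes of 1.70, 1.68 and 1.10. Of the 6 progenitor markers 3 were measured (1269 and 2338 CPM in KCl, 801 and 2209 in control), and none of the 6 microglia markers was. At the level of genes, edgeR called 0 of 6117 at an adjusted p under 0.05 (0%), with 12.3% at an unadjusted p under 0.05. These bulk libraries cannot tell fewer cells of a type from less RNA per cell, and the part of the markers in the splicing values below was not tested.

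The question put to the pairs was whether neurons depolarised a day earlier use one exon of a pair more than the other. Among the 20 pairs of smallest p whose libraries did not overlap were those of Pkm, Dlgap4, Meg3, Mapk8 and Mapk9, with a lower share of the upstream exon in both KCl libraries, and those of Pdlim7 and Actn4, with a higher one. None passed the main test over all events, which had no term for the replicate number. In it, edgeR's quasi-likelihood test called 0 of the 545 pairs and 0 of all 10088 events (0%) at an adjusted p under 0.05, and the smallest adjusted p was 0.0972. At an unadjusted p under 0.05, 37 of the 545 pairs (6.79%) were found, 17 with a higher and 20 with a lower share, where 9.21% of all events were, 4.24% higher and 4.97% lower. By type, such a p was found for 12.4% of cassette exons and 3.95% of retained introns. For alternative 3' and alternative 5' splice sites it was 3.70% and 3.57%. The percentage of pairs was thus below that of cassette exons and above that of the other types. DESeq2 and limma also called 0 pairs. With a term for the replicate number, edgeR called 8 pairs (1.47%, against 1.67% of all events), as given in the last section. The labels do not say what libraries of a number share. DESeq2 had 22 pairs (4.04%) and 5.86% of all events at an unadjusted p under 0.05, and limma had 29 pairs (5.32%) and 10.7% of all events. The 2 KCl and the 2 control libraries did not overlap in 163 pairs (29.9%), 86 higher and 77 lower, against 40.7% of all events (21.2% higher, 19.5% lower). With 2 libraries against 2, an exact two-sided permutation test of a single pair cannot give a p below 0.33.

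**Figure D2:**
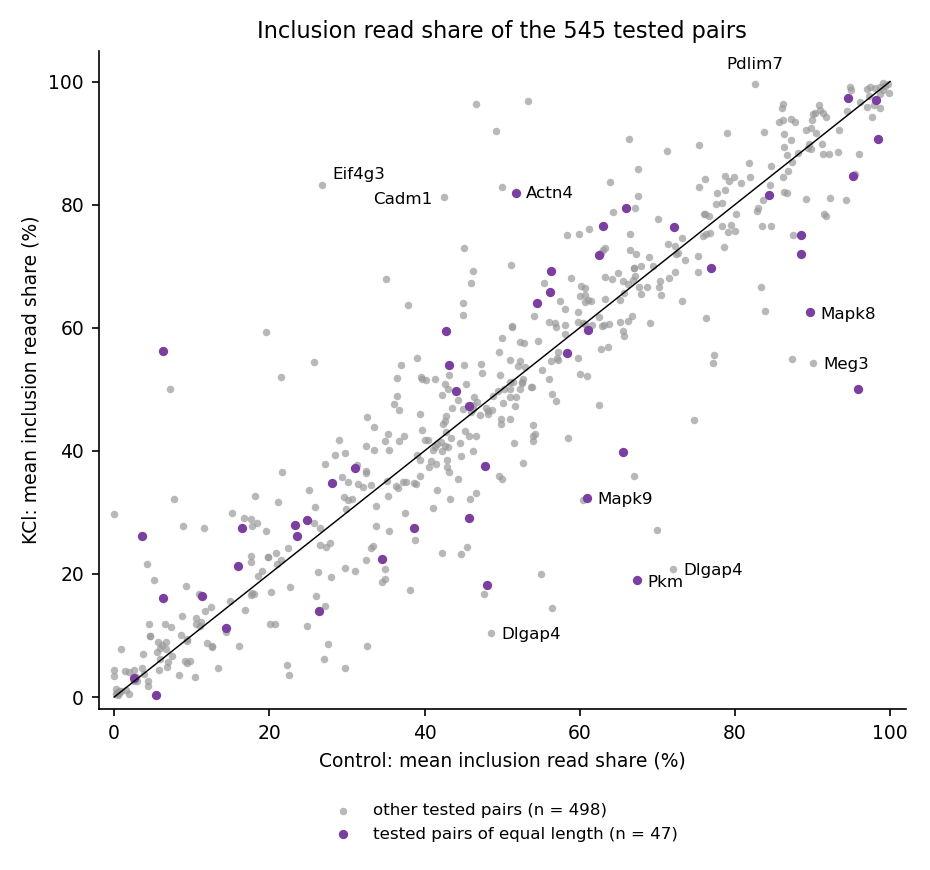
Mean inclusion read share of the 545 tested pairs in control (x axis, %) and KCl (y axis, %), with the line of equal shares. Most pairs lie near the line, while Pkm and both Dlgap4 pairs lie far below it, and Cadm1, Actn4 and Eif4g3 above.

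Pkm encodes pyruvate kinase, which makes the last ATP of glycolysis. Its upstream exon gives the M1 enzyme of adult neurons and muscle and its downstream exon the M2 enzyme of proliferating cells and many glia. The exons, both of 167 bases, lie at chr9:59675029-59675195 and chr9:59675568-59675734 with an intron of 372 bases. The upstream exon took 11.1% and 26.8% of 2819 and 2002 reads in KCl, and 71.7% and 63.0% of 4063 and 1860 reads in control. Both KCl libraries were thus far below both control libraries, and the KCl library of replicate 1 was the lower one. That library also had the lowest sum of neuron markers (690 CPM), whose part was not tested. The mean share was 19.0 ± 11.1% in KCl and 67.3 ± 6.12% in control (SD, n = 2 each), a log2 odds ratio of -3.28 (SE 0.72; edgeR adjusted p = 0.111). Reads of the upstream exon as a cassette numbered 315 and 538 in KCl and 2912 and 1174 in control, and those of the downstream exon 2508 and 1466 in KCl and 1151 and 690 in control, each exon being included in 99.4% to 100% of the reads of its cassette event. The reads of both exons together had a log2 fold change of -0.35 (edgeR unadjusted p = 0.567).

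The JNK kinases, which phosphorylate c-Jun and cytoskeletal proteins of neurons, carry a pair of 72 bases each within the kinase domain. It is known to alter how the kinase binds its substrates. Mapk9 (JNK2; chr11:49873836-49873907 and chr11:49874264-49874335) kept its upstream exon in 32.6% and 32.0% of reads in KCl and in 62.0% and 59.8% in control. Its libraries agreed closely within each group, and the log2 odds ratio was -1.70 (SE 0.62; edgeR adjusted p = 0.371). For Mapk8 (JNK1; chr14:33390242-33390313 and chr14:33390673-33390744, minus strand) the share was 50.0% and 75% in KCl and 85.0% and 94.3% in control (log2 odds ratio -2.40, SE 0.75; edgeR adjusted p = 0.247). Mapk10 (JNK3, the form most restricted to the nervous system; chr5:102976355-102976426 and chr5:102987203-102987274, minus strand) had 91.2% and 90.2% in KCl and 99.0% and 97.8% in control (log2 odds ratio -2.66, SE 0.80; edgeR adjusted p = 0.229). All 3 pairs were chosen for groups that do not overlap, and in each of them the KCl libraries were the lower ones. The reads of the pair were lower in KCl too, with log2 fold changes of -1.05, -1.31 and -1.19 for Mapk9, Mapk8 and Mapk10. Mapk14, which encodes the stress kinase p38 alpha, had 44.4% and 25% in KCl and 36.8% and 19.4% in control, on 9 to 31 reads, and its groups overlapped.

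Dlgap4, which encodes a scaffold protein of the postsynaptic density, has 2 pairs that share the upstream exon of 80 bases at chr2:156748023-156748102 and end the downstream exon at different places. With the downstream exon of 72 bases, the upstream exon took 12.7% and 29.0% of the reads in KCl and 77.6% and 66.4% in control (log2 odds ratio -3.25, SE 0.70; edgeR adjusted p = 0.0972). The pair with the downstream exon of 89 bases had 6.33% and 14.6% in KCl and 53.0% and 44.2% in control (log2 odds ratio -3.004, SE 0.69; edgeR adjusted p = 0.115). The 2 pairs rest on the same upstream reads and count as 1 observation of that exon. As cassettes, the downstream exon of 72 bases was included in 93.2% and 76.6% of reads in KCl and in 43.4% and 46.1% in control. The upstream exon as a cassette was included in 66.7% and 57.2% of reads in KCl and in 72.7% and 62.8% in control (log2 odds ratio -0.48; edgeR adjusted p = 0.950), on 15 and 173 reads in KCl and 205 and 572 in control.

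Meg3 is an imprinted gene of a long noncoding RNA, so its pair (113 and 81 bases; chr12:109546430-109546542 and chr12:109549291-109549371) changes no protein. The upstream exon took 37.7% and 70.9% of the reads in KCl and 90.1% and 90.01% in control (log2 odds ratio -2.87, SE 0.74; edgeR adjusted p = 0.147). The control libraries were nearly equal while the KCl libraries lay far apart, and reads of the pair averaged 225 CPM in KCl and 630 CPM in control. As a cassette, the upstream Meg3 exon was included in 98.9% and 99.0% of reads in KCl and in 100% and 100% in control. The downstream exon as a cassette was included in 87.2% and 51.3% of reads in KCl and in 28.8% and 26.3% in control. The log2 odds ratio of this downstream cassette was 2.72 (edgeR adjusted p = 0.209). Cyfip1 is part of the WAVE complex that drives actin branching and also represses translation. Its share was 6.35% and 3.98% in KCl and 16.7% and 27.8% in control (log2 odds ratio -2.38, SE 0.69; edgeR adjusted p = 0.209). No strand was at hand for Cyfip1, so which exon its inclusion reads belong to was not settled by strand. Its exon of higher coordinate, as a cassette, was included in 93.9% and 98.9% of reads in KCl and 84.9% and 75.2% in control. That cassette log2 odds ratio was 2.78 (edgeR adjusted p = 0.209), opposite to the pair, as when the inclusion reads are those of the exon of lower coordinate.

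Pdlim7 encodes a PDZ and LIM domain adaptor of actin filaments, and its pair joins exons of 119 and 17 bases (chr13:55508208-55508326 upstream and chr13:55507864-55507880 downstream, minus strand). The upstream exon took 99.3% and 100% of 136 and 176 reads in KCl and 79.3% and 86.0% of 58 and 57 reads in control (log2 odds ratio 5.72, SE 1.14; edgeR adjusted p = 0.0972). The KCl library of replicate 2 had 0 of 176 reads of the downstream exon, which allows a share of up to 1.70% (counting error only), so the fitted odds ratio depends on the prior count and is no bound. As a cassette, the upstream Pdlim7 exon was included in 96.4% and 98.9% of reads in KCl and in 97.9% and 96.1% in control. Its cassette log2 odds ratio was 0.54 (edgeR adjusted p = 0.980). Actn4 encodes alpha-actinin 4, which crosslinks actin in nonmuscle cells, and its exons of 86 bases lie at chr7:28911490-28911575 and chr7:28909903-28909988 (minus strand). Its upstream exon took 85.5% and 78.1% of reads in KCl and 47.8% and 55.7% in control (log2 odds ratio 2.05, SE 0.74; edgeR adjusted p = 0.373). Actn1, the gene of alpha-actinin 1, had 98.0% and 94.8% in KCl and 82.6% and 89.9% in control (log2 odds ratio 1.98, SE 0.74; edgeR adjusted p = 0.400). The pairs of Pdlim7, Actn4 and Actn1 were chosen for groups that do not overlap. Their mean levels in KCl were above those of control: 64.5 against 23.9 CPM for Pdlim7, 41.7 against 28.8 CPM for Actn4 and 167 against 72.2 CPM for Actn1.

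Cadm1 encodes the synaptic cell adhesion molecule SynCAM 1. Its pair of 84 and 33 bases (chr9:47818734-47818817 and chr9:47829377-47829409, strand not at hand) had a share of 82.3% and 80.1% in KCl and 37.2% and 47.9% in control (log2 odds ratio 2.54, SE 0.63; edgeR adjusted p = 0.143). Eif4g3, the gene of a translation initiation scaffold, pairs exons of 33 and 21 bases and kept the upstream one in 87.5% and 78.9% of 16 and 19 reads in KCl and in 28.6% and 25% of 14 and 20 reads in control (log2 odds ratio 3.69, SE 1.12; edgeR adjusted p = 0.239). Ddhd1, the gene of a phospholipase of phosphatidic acid, also holds an exon of 21 bases, here the upstream one, at 8.25% and 8.47% in KCl and 33.3% and 31.9% in control (log2 odds ratio -2.39, SE 0.82; edgeR adjusted p = 0.329). These 3 pairs were among the 20 chosen for groups that do not overlap. Of the 10 tested pairs with an exon of at most 27 bases, those of Pdlim7 and Eif4g3 (higher) and Ddhd1 (lower) had an unadjusted p under 0.05, which is 30% of so few pairs, against 9.21% of all events.

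The rest of the 20 pairs with the smallest p had fewer reads or shares near an end of the scale. Pdzd4, a PDZ domain gene, had 16.7% and 37.5% in KCl and 70.0% and 69.9% in control. Btbd10, a BTB domain gene, had 41.0% and 23.3% in KCl and 8.57% and 6.82% in control, and Ccdc136 had 54.0% and 50.0% in KCl and 11.1% and 31.8% in control. In Ube2k, the gene of a ubiquitin-conjugating enzyme, the share was 13.1% and 2.59% in KCl and 1.83% and 0% in control, where 0 of 125 reads allow up to 2.40%. For Celf1, which encodes an RNA-binding splicing regulator, the upstream exon had 1.73% and 7.19% of 173 and 139 reads in KCl and 0 of 124 and 0 of 134 reads in control, which allow up to 2.42% and 2.24%. Vrk1, a kinase gene, had 30.8% and 28.6% of 13 and 7 reads in KCl and 0 of 15 and 0 of 8 in control, which allow up to 20% and 37.5%. The edgeR adjusted p of these 6 pairs was between 0.266 and 0.417.

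**Figure D3:**
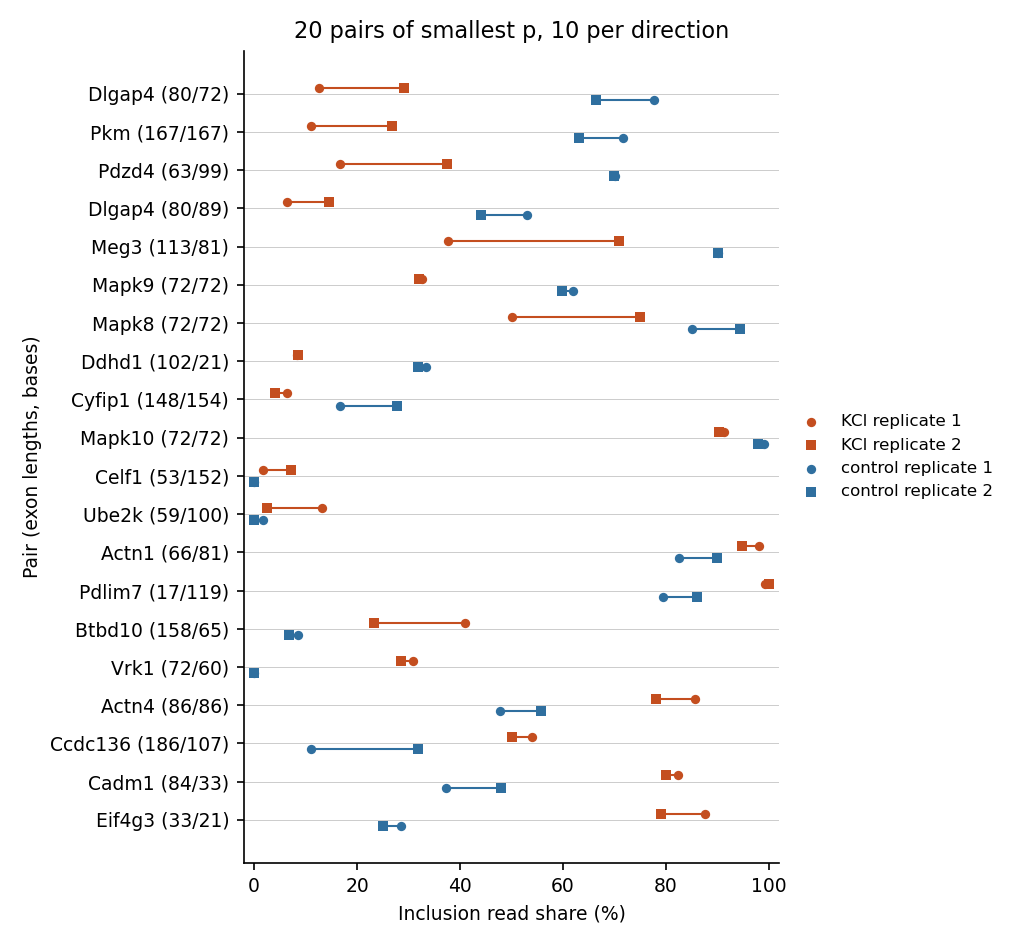
Inclusion read share (x axis, %) in each KCl library (upper, orange) and control library (lower, blue) for the 20 pairs of smallest unadjusted p among those whose groups do not overlap, 10 per direction, with exon lengths in bases. Lines join the 2 libraries of a group, and within the figure the spread is widest in Meg3 and Mapk8 for KCl and in Ccdc136 for control.

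Of 31 pairs in 26 genes known for mutually exclusive exons, 30 were tested, and 2 had a higher and 4 a lower share at an unadjusted p under 0.05, all of them described above (Pkm, Mapk8, Mapk9, Mapk10, Actn1 and Actn4). They were 20% of the 30, where 9.21% of all events had such a p. Groups did not overlap in 16 pairs (53.3%), 8 higher and 8 lower, against 40.7% of all events. The AMPA receptor genes Gria1 to Gria4, whose flip and flop exons of 115 bases set how fast the glutamate receptor desensitises, gave differences in both directions, none at an unadjusted p under 0.05. Gria2 had 31.1% and 23.7% of its upstream exon in KCl and 16.7% and 16.4% in control (log2 odds ratio 0.91, SE 0.64), and Gria1 a share of 22.7% and 22.1% in KCl and 33.4% and 35.7% in control (log2 odds ratio -0.87, SE 0.62). For Gria4 it was 37.5% and 20.6% in KCl and 59.8% and 31.7% in control, and for Gria3 0% and 0.82% in KCl and 9.35% and 1.39% in control, where the 0 of 42 reads of the KCl library allow up to 7.14%. Of the 4 genes, Gria4 alone had overlapping groups. Its strand and that of Gria2 are known, those of Gria1 and Gria3 were not at hand.

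Snap25, whose exons of 118 bases encode part of the SNARE that fuses synaptic vesicles, had 76.8% and 82.2% in KCl and 55.7% and 76.4% in control (log2 odds ratio 0.99, SE 0.70). Its reads averaged 79.4 CPM in KCl and 376 CPM in control. Dnm1, the dynamin of synaptic vesicle endocytosis, kept its upstream exon of 139 bases in 69.8% and 61.9% of reads in KCl and in 57.2% and 55.0% in control, and Dnm2, the dynamin of most other cells, in 22.4% and 20.1% in KCl and in 19.0% and 13.1% in control. The sodium channel gene Scn2a, with exons of 92 bases in the voltage sensor of the first domain, had 72.7% and 65.8% in KCl and 44.8% and 67.7% in control, and Scn8a 22.2% and 52.9% in KCl and 50.0% and 45.6% in control. The calcium channel gene Cacna1c had 75% and 94.4% in KCl and 97.6% and 92.7% in control for its exons of 104 bases, and a second pair, of 60 bases, had only 1 to 16 reads in a library. The first 3 of these channel pairs overlapped between groups and rested on few KCl reads, 9 to 76 in a library.

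Some classical pairs used almost only 1 exon in every library. Fgfr2 kept its upstream exon, which gives the epithelial IIIb form of the FGF receptor, in 0.312% and 1.03% of reads in KCl and in 0% and 0.806% in control, where 0 of 117 reads allow up to 2.56%, and the Fgfr1 pair had 0.698% and 0.608% in KCl and 0.424% and 0.262% in control. Mef2c kept the upstream exon, printed above, in 100% and 98.3% of reads in KCl and in 99.4% and 98.1% in control. Its relative Mef2d had 96.9% and 99.5% in KCl and 100% and 99.6% in control, whereas Mef2a used both exons, with 54.7% and 65.8% upstream in KCl and 57.7% and 68.1% in control. Slc25a3, the mitochondrial phosphate carrier, kept the upstream exon of 125 bases in 0.554% and 0.804% in KCl and in 0.683% and 0.521% in control. The tyrosine kinase gene Fyn kept the upstream exon of 165 bases, the brain type, in 88.0% and 89.0% in KCl and in 94.1% and 92.4% in control (log2 odds ratio -0.85, SE 0.65). H2afy, the gene of the histone variant macroH2A1, had 82.3% and 86.6% in KCl and 82.3% and 90.2% in control. P4ha1, the gene of a collagen prolyl hydroxylase subunit, had 61.1% and 66.9% in KCl and 56.7% and 52.2% in control. Of the other exons printed above, that of Enox2, which is the upstream one, had 59.0% and 50.0% in KCl and 31.0% and 20.5% in control (log2 odds ratio 1.84, SE 0.89; edgeR adjusted p = 0.541). The Ssbp3 exon, also upstream, had 50.0% and 88.0% in KCl and 76.5% and 68.2% in control, and the Cdk19 pair 38.0% and 10.6% in KCl and 36.3% and 18.3% in control, both with overlapping groups.

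**Figure D4:**
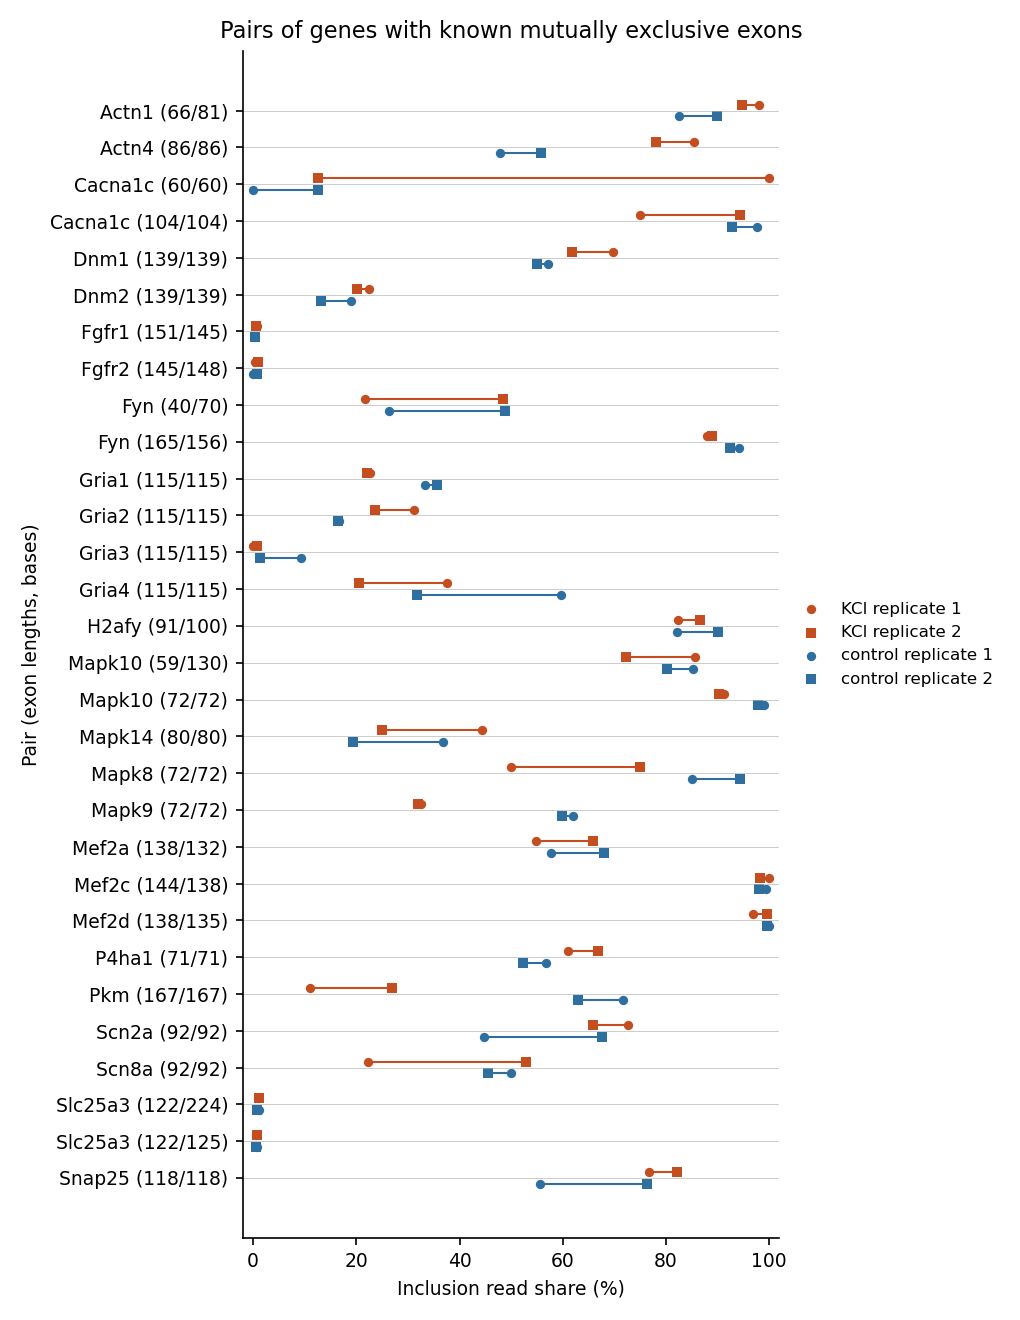
Inclusion read share (x axis, %) in each KCl library (upper, orange) and control library (lower, blue) for the tested pairs of genes known for mutually exclusive exons, with exon lengths in bases. Pkm, Mapk9 and Actn4 show the clearest gaps between groups, and Fgfr1, Fgfr2, Slc25a3, Mef2c and Mef2d stay at an end of the scale in every library.

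By length, 9 of the 47 tested pairs of equal length (19.1%) had an unadjusted p under 0.05, and 55.3% had groups that did not overlap, against 9.21% and 40.7% of all events. Of the 255 tested pairs whose lengths differ by no multiple of 3, 10 did (3.92%), and 24.3% had groups that did not overlap. The median size of the log2 odds ratio was 0.72 in pairs of equal length, 0.37 in those differing by no multiple of 3 and 0.39 over all pairs. These shares were not tested against each other, and the levels of the pairs of equal length were lower in KCl in 36 of 49, with a median log2 fold change of -0.62. Besides those above, the equal pairs at that p were in Acsl6, an acyl-CoA synthetase gene, with 8.20% and 28.3% upstream in KCl and 40.9% and 55.3% in control, in Rab6a, a Golgi GTPase gene, with 17.6% and 14.6% in KCl and 5.06% and 7.58% in control, and in Tmem87b and Mapt on few reads. Acsl6 and Rab6a have introns of 57 and 66 bases between their exons. Of the 33 tested pairs with an intron under 100 bases they were the only 2 at that p.

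By gene class, counts at an unadjusted p under 0.05 were 1 higher and 2 lower of 25 tested pairs of ion channels, receptors and adhesion genes, 3 higher and 2 lower of 24 of cytoskeleton and motor genes, 1 higher and 3 lower of 33 of kinases, phosphatases and small GTPase regulators, and 1 higher and 0 lower of 23 of chromatin, transcription and RNA processing genes. These were 12.0%, 20.8%, 12.1% and 4.35% of the pairs of each class, where 9.21% of all events had such a p. Besides Pkm, the 6 pairs with most reads include those of Atp5f1, described below, and 4 others with means less than 3 points apart. Tpt1, which encodes a translationally controlled tumour protein, had 55.0% and 54.3% in KCl and 58.6% and 54.1% in control on 4837 to 7932 reads, Hnrnpa1 7.90% and 3.53% in KCl and 10.1% and 3.61% in control, Saraf, a regulator of calcium entry, 36.1% and 32.0% in KCl and 33.0% and 31.2% in control, and Rai1, a transcriptional regulator gene, 0.839% and 0.998% in KCl and 0.639% and 0.565% in control. In Smpd4, 3 of its 4 pairs share the exon of 87 bases, and all 4 pairs overlapped between groups, as did all 4 of Fam149b.

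Libraries of a replicate number resembled each other over the pairs. Their deviations from the group means correlated at 0.41 over the pairs and at 0.06 over all events. Atp5f1, the gene of an ATP synthase subunit, had 67.0% and 50.9% in KCl and 68.2% and 48.0% in control, and a second Fyn pair, of 40 and 70 bases, 21.6% and 48.4% in KCl and 26.4% and 48.9% in control, so that in both the number and not the group went with the share. Over the pairs, the median absolute difference was 9.04 points between the KCl libraries and 8.14 points between the control libraries, and 6.48 and 4.38 points between KCl and control of replicates 1 and 2. The corresponding medians over all events were 4.14, 4.05, 5.00 and 3.83 points. The median difference of the mean share was 0.43 points over the pairs and 0.08 points over all events. Over the pairs it was -0.26 points without the KCl library of replicate 1 and between 0 and 1.28 points without any of the others. A pair moved the same way in both replicate numbers in 306 of the 541 pairs with a difference in each (56.6%), and all events in 58.4%. Of 88 pairs that differed by at least 20 points in replicate 1, 54 moved the same way in replicate 2 (61.4%), and 22 did so by at least 20 points. Over all events 1155 of 1700 did (67.9%), and 465 by at least 20 points.

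**Figure D5:**
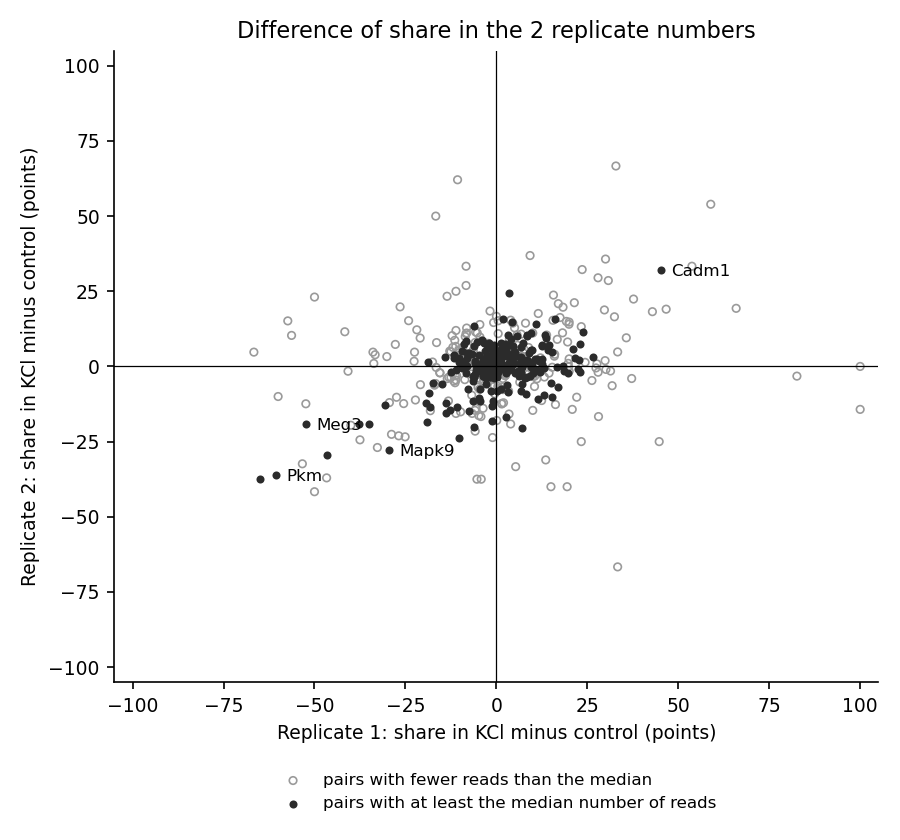
Difference of the inclusion read share, KCl minus control, in replicate 1 (x axis, points) and replicate 2 (y axis, points) for the 545 tested pairs, split at the median number of reads. Pkm, Meg3 and Mapk9 lie in the lower left and Cadm1 in the upper right, and the widest scatter is among pairs with fewer reads.

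In the authors' deposited table, which compares KCl with control within a replicate number, 29 pairs (5.16%) had an FDR under 0.05 in replicate 1 and 17 (3.02%) in replicate 2, against 2.89% and 1.29% of all events. The deposited values match an adjustment over mutually exclusive pairs alone, so this FDR may stand for another cutoff in other event types. Pairs also had more reads, a median of 441 against 318 for cassette exons. The percentages of pairs and of all events are therefore not like for like. Both numbers agreed in direction at that FDR for 11 pairs (1.96%), against 1.02% of all events. They were the pairs of Pdlim7, Dlgap4 (both), Pkm, Cadm1, Meg3, Mapk8 and Mapk9 described above, and those of Map4k4, 4833439L19Rik and Ptprs. Map4k4, a kinase gene, had 19.5% and 17.9% in KCl and 37.8% and 31.2% in control by the counts, and Ptprs, the gene of a receptor phosphatase of axons and synapses, 34.5% and 41.6% in KCl and 48.3% and 57.2% in control. The shares of 4833439L19Rik were 68.1% and 42.0% in KCl and 51.9% and 26.1% in control, so its groups overlapped although each replicate number gave a higher share in KCl. A comparison within a number has 1 library a side, and its FDR covers the counting of reads.

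The level of the pairs, both forms summed, was also compared. edgeR called 0 of 562 pairs and 0 of 11814 events (0%) at an adjusted p under 0.05, with 15 pairs higher and 62 lower at an unadjusted p under 0.05, where 4.08% of all events were higher and 6.85% lower. The median log2 fold change was -0.04 over the pairs and 0.02 over all events, and 302 of 562 pairs were lower in KCl (53.7%, against 48.8% of all events). Among the smallest p were Mbp, the myelin basic protein gene, with 90.6 and 64.2 CPM in KCl and 18.6 and 16.2 CPM in control, and Rims1, an active zone scaffold gene of synapses, with 5.86 and 9.99 CPM in KCl and 36.7 and 39.5 CPM in control. Pairs of Mef2c, Snap25 and Dnm1 had log2 fold changes of -2.60, -2.24 and -2.12. DESeq2 called 4 pairs for level (0.712%, against 0.626% of all events) and limma 0 of both. With a term for the replicate number, edgeR called 82 pairs for level (14.6%, against 11.5% of all events), as given in the last section. What libraries of a number share is not stated in the labels. Without the KCl library of replicate 2 edgeR called 20 pairs (3.56%, against 3.67% of all events), and without the control library of replicate 2 it called 3 (0.534%, against 0.677%). The summed neuron markers were lower and the oligodendrocyte markers higher in KCl, as given above, and their part in these levels was not tested.

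Of 40 RNA-binding regulators of such exons, 31 were measured through a splicing event, and edgeR called 0 of them. At an unadjusted p under 0.05, 0 were higher and 2 lower, 6.45% of the 31, where 12.3% of all genes had such a p, so the share was below that of all genes. Khdrbs3, which encodes the brain splicing factor SLM2, averaged 284 ± 24.6 CPM in KCl and 606 ± 125 CPM in control (SD, n = 2 each; log2 fold change -1.09), and Rbfox1 9.63 ± 8.78 CPM in KCl and 37.1 ± 11.5 CPM in control (log2 fold change -1.91). Next were Rbfox3, the NeuN gene and one of the neuron markers, at 68.1 CPM in KCl and 226 CPM in control, and Hnrnpf at 240 CPM in KCl and 124 CPM in control. Ptbp1, which encodes the PTB protein that represses the upstream Pkm exon, averaged 168 CPM in KCl and 90.2 CPM in control. Its log2 fold change was 0.90 (edgeR adjusted p = 0.480), and its part in the Pkm share was not tested.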

How the data were processed

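RNA-seq of 2 KCl and 2 control libraries was analysed. Per the file headers, the authors deposited whole-number counts of reads for the inclusion and the skipping form of each splicing event. The same tables hold a deposited p-value and FDR of KCl against control for each replicate number. The submitters' processing notes name the genome build mm10 and, with no role, TopHat2, MACS2, BWA 0.7.12 and CASAVA 1.7. The sources used here name neither the event counter nor its annotation or flanking exons, so equal coordinates in the 2 tables could rest on other flanks. The H3K9me3 ChIP libraries of the series were not used, nor was a second copy of the KCl counts of replicate 1.

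Exon starts, which count from 0 in the tables, are given from 1. Libraries held 3566066 to 5385345 event reads. Splicing was tested with the quasi-likelihood test of edgeR 4.0.16 in R 4.3.3. It took inclusion and skipping counts of events of every type, provided that neither form averaged under 1 read, and its model had library terms, the form, and the interaction of form and KCl. Levels of events (the sum of both counts), and of genes through their event with most reads, were tested with edgeR after TMM scaling, with an intercept and KCl. A gene's level therefore rests on 1 splicing event, not on all its reads. Adjustment was Benjamini-Hochberg over all events, threshold 0.05. DESeq2 1.42.0, limma 3.58.1, other filters and scalings, a replicate block and leaving out each library were alternatives. The fits were tested on simulated data. Strand and exon sequences came from RefSeq promoters by symbol. All 486 gene IDs of the pairs matched a symbol, and 3 symbols damaged by a spreadsheet were restored by ID. Intervals and limits cover counting error only.

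The members and lists were chosen with earlier results of these data known. Pairs were named by rule: the 10 per direction of smallest p with groups that do not overlap, tested pairs of known genes, the 6 with most reads, and genes with most pairs. Acsl6, Rab6a, Tmem87b, Mapt, Mbp, Rims1, Map4k4, Ptprs and 4833439L19Rik, pairs named by their length class, level or deposited FDR, were added after their values were seen, and Enox2, Cdk19 and Ssbp3 for their sequence alone. Of the regulators, those of smallest p were named by rule, and Ptbp1 was named outside it.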

Additional observations from a re-analysis of the deposited data

How the results depend on the processing

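The count of 0 pairs called for splicing held with DESeq2, limma, no filter, a mean of at least 5 reads, equal coordinates summed, pairs fitted alone, and without any library (0 to 0). With a replicate block 8 pairs (1.47%, against 1.67% of all events) were called (Pkm, both of Dlgap4, Meg3, Pdlim7, Cadm1, Mapk8 and Cyfip1): 2 on the list of known genes, 3 among ion channels, receptors and adhesion, 1 in cytoskeleton and motors and 1 in kinases. What libraries of a replicate number have in common is not stated in the labels. The correlation of deviations between libraries of a number was 0.06 over all events and 0.41 over the pairs for splicing, and 0.63 and 0.61 for level. For level, 82 pairs were called with the block (14.6%, against 11.5% of all events), 4 with DESeq2, and 0 to 20 without 1 library. The median difference of share, 0.43 points, was 0.55 with a mean of at least 5 reads, 0.52 with no filter and -0.26 to 1.28 without 1 library. The cause was not tested.

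The log2 odds ratio of Mef2c was 0.28 with the replicate block against -0.25 without. Without 1 library, the ratio of 21 named pairs changed sign, none of them among the 20 of smallest p: it ran from -0.56 to 0.65 for Atp5f1, -1.26 to 2.78 for Mef2c, -0.74 to 0.24 for H2afy, -1.09 to 0.68 for Fyn (40 and 70 bases), -1.61 to 0.31 for Scn8a, -0.50 to 0.18 for Mef2a, -0.53 to 2.76 for Fgfr2, -0.0056 to 0.26 for Saraf, -1.004 to 0.59 for Hnrnpa1, -0.90 to 0.29 for Mapk10 (59 and 130 bases), -0.18 to 1.12 for Mapk14, -0.23 to 0.030 for Tpt1, -0.061 to 0.47 and -0.11 to 0.43 for Slc25a3, -2.01 to 0.16, -0.40 to 2.38 and -0.19 to 1.19 for Smpd4, and -0.92 to 0.12, -1.12 to 0.58, -1.57 to 0.69 and -0.40 to 0.16 for Fam149b. The 20 pairs of smallest p were chosen for groups that do not overlap, so leaving out 1 library could not change their sign. Their constant sign is therefore no evidence that they are more stable. With 2 libraries a group, medians of 76 to 118 reads per pair and no read of a form in some libraries limit what differences could be seen.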
